A study of Mus musculus with 6 samples.

Results

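Natural killer (NK) cells and type 1 innate lymphoid cells (ILC1s) read their surroundings through activating receptors, many of which signal through small adaptor proteins. The 7 genes described here are 4 receptor genes, Ncr1, Fcgr3, Cd160 and Cd7, and 3 adaptor genes, Fcer1g, Tyrobp and Hcst. They were chosen by name, all 7 were found among the 55291 gene symbols of the deposited count table, and all 7 passed the filter on low counts that left 14475 genes for testing. The libraries came from cells sorted from MC38 tumours, a colon carcinoma line of C57BL/6 origin, that had grown under the skin of wild-type C57BL/6 mice for 14 days. There were 3 NK and 3 ILC1 libraries, and both groups shared the same tumour model, mouse strain and day, with no further treatment given. The labels do not say whether the samples came from separate mice or pools, so each p-value measures only spread among these libraries, which may be technical. The sorting gate is not given in the sources used here.

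NKp46, the product of Ncr1, is carried by NK cells and ILC1s and signals through the Fc receptor gamma chain (Fcer1g) and the CD3 zeta chain (Cd247). The same gamma chain serves the low-affinity IgG receptor CD16 (Fcgr3) in NK cells and in macrophages. DAP12 (Tyrobp) serves activating Ly49 receptors in NK cells and many myeloid receptors, and DAP10 (Hcst) serves the receptor NKG2D. The gamma chain, DAP12 and the zeta chain carry immunoreceptor tyrosine-based activation motifs (ITAMs), in which a pair of tyrosines is phosphorylated by Src family kinases and then holds the kinases Syk and ZAP-70. DAP10 instead carries a tyrosine motif that binds phosphoinositide 3-kinase. CD160 is an immunoglobulin-like receptor that binds HVEM, and CD7 is an immunoglobulin-like surface protein of lymphocytes that binds SECTM1.

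The coding stretches that hold these motifs are shown because they separate the adaptors that carry an ITAM from DAP10, which does not. They come from the GENCODE M21 transcripts on GRCm38 and are written 5′ to 3′ on the coding strand, with the tyrosine codons in capitals.
Fcer1g: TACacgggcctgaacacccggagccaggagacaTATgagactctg
Tyrobp: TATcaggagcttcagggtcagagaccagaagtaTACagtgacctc
Hcst: TACatcaacatg
The Fcer1g stretch encodes residues 65 to 79 of 86 and is split between 2 exons (chr1:171229889-171230072, reverse strand). The Tyrobp stretch encodes residues 92 to 106 of 114, also over 2 exons (chr7:30415670-30417382, forward strand). The Hcst stretch encodes residues 72 to 75 of 79 in 1 exon (chr7:30417821-30417832, reverse strand). A search of the coding sequences for the spaced tyrosine pair of an ITAM gave 1 match in Fcer1g, 1 in Tyrobp, 3 in Cd247 and 0 in Ncr1, Fcgr3, Cd160, Cd7 and Hcst. A search for the phosphoinositide 3-kinase motif gave 1 match in Hcst and 1 in Cd7, and 0 in the other members and in Cd247.

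The 7 genes are annotated as protein coding and lie on 4 chromosomes of GRCm38. Tyrobp (chr7:30413760-30417585, forward strand) and Hcst (chr7:30417712-30419854, reverse strand) face each other tail to tail with 126 bases between their ends, and Ncr1 (chr7:4337724-4345164, forward strand) lies elsewhere on the same chromosome. Fcgr3 (chr1:171051174-171064935) and Fcer1g (chr1:171229572-171234365) lie 164636 bases apart, both on the reverse strand. Cd160 (chr3:96798763-96829351, reverse strand) overlaps Pdzk1 on the other strand, which had 0 to 1.18 CPM (counts per 1000000 counts of a library scaled by TMM). Cd7 (chr11:121036747-121039418, reverse strand) overlaps the antisense gene Gm11775, which had a count above 0 in ILC1 replicate 3 alone, at 0.058 CPM. Counts refer to whole genes, so isoforms were not separated.

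Total counts per library ran from 16931099 to 20224847. A count of 0 therefore allows a level of up to 0.148 to 0.177 per 1000000 total counts (3 counts, by counting error alone). This limit uses unscaled totals, so it differs slightly from the TMM-scaled CPM. The summed level of 8 NK markers was 3453 to 5649 CPM in the NK libraries and 742 to 1214 CPM in the ILC1 libraries, and that of 8 ILC1 markers was 134 to 172 and 632 to 959 CPM. Some libraries stood apart. In ILC1 replicate 3 the 16 macrophage and monocyte markers summed to 16002 CPM, against 1145 to 1502 CPM in the other 5 libraries, and 15 of the 16 had their highest level there. All 16 had counts in that library, while Fcgr1 had 0 counts in NK replicate 1 and Mrc1 0 counts in NK replicate 2. The 10 T cell markers also had their highest sum there, 225 CPM against 60.1 to 82.6 CPM, with 8 of the 10 highest in that library. For such counts of genes highest in a given library, here and below, the share over all tested genes was not computed. The 8 neutrophil markers summed to 111 CPM there against 5.80 to 25.9 CPM, but 3 of the 8 were highest there and Mmp8 (58.1 CPM) and Csf3r (44.9 CPM) made up most of the sum, while S100a9 had 2.96 CPM against 1.45 to 10.0 CPM. Mmp8, Csf3r and S100a9 were named after their values were seen. A different split was seen for the 8 fibroblast and matrix markers, with sums of 934 CPM in NK replicate 3 and 1116 and 1661 CPM in ILC1 replicates 1 and 2, but of 5.89 to 57.0 CPM in the remaining libraries. Of the macrophage list, Lyz2 had 92.6, 117 and 94.2 CPM in these libraries rich in matrix markers, and 29.8 and 32.8 CPM in NK replicates 1 and 2. Cd14 was split alike, but Cd68 and Csf1r, named after their values were seen, were not. Ccr2 held 474 to 1012 CPM of the macrophage sum outside ILC1 replicate 3. In bulk RNA, a smaller share of cells of a type and less RNA per cell cannot be told apart.

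None of the 7 genes passed edgeR's quasi-likelihood test at a Benjamini-Hochberg adjusted p under 0.05, where 0.00691% of all tested genes passed as lower and 0.0760% as higher in ILC1s. Ncr1, Cd7 and Hcst had an unadjusted edgeR p under 0.05, all with lower values in ILC1s, where 8.82% of tested genes did so in that direction and 6.95% in the other. Their ILC1 libraries all lay below their NK libraries, which held for 13.3% of tested genes. DESeq2 called Ncr1 and Cd7 lower, where it called 4.80% lower and 3.55% higher of the genes to which it gave an adjusted p. Over the 7 genes the median log2 fold change (ILC1 minus NK) was -0.35, with 5 of 7 values below 0, against a median of 0.081 and 44.0% below 0 over all tested genes. When ILC1 replicate 3, in which the macrophage markers were high, was left out, all 7 values were below 0 and their median was -0.72, against 0.038 and 47.0% over all genes tested then. In that fit 0 of the 7 passed (0.0729% of all genes passed as lower), 5 had an unadjusted edgeR p under 0.05 with lower values, as did 9.54% of all genes, and for 5 both remaining ILC1 libraries lay below all NK libraries, as for 19.4% of all genes. With replicates 1 and 2 of each group alone, 6 of the 7, all but Fcer1g, passed as lower in edgeR's test, where 10.8% of all genes passed as lower and 19.5% as higher. In those 4 libraries the matrix markers and the cell type changed together and cannot be told apart.

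**Figure D1:**
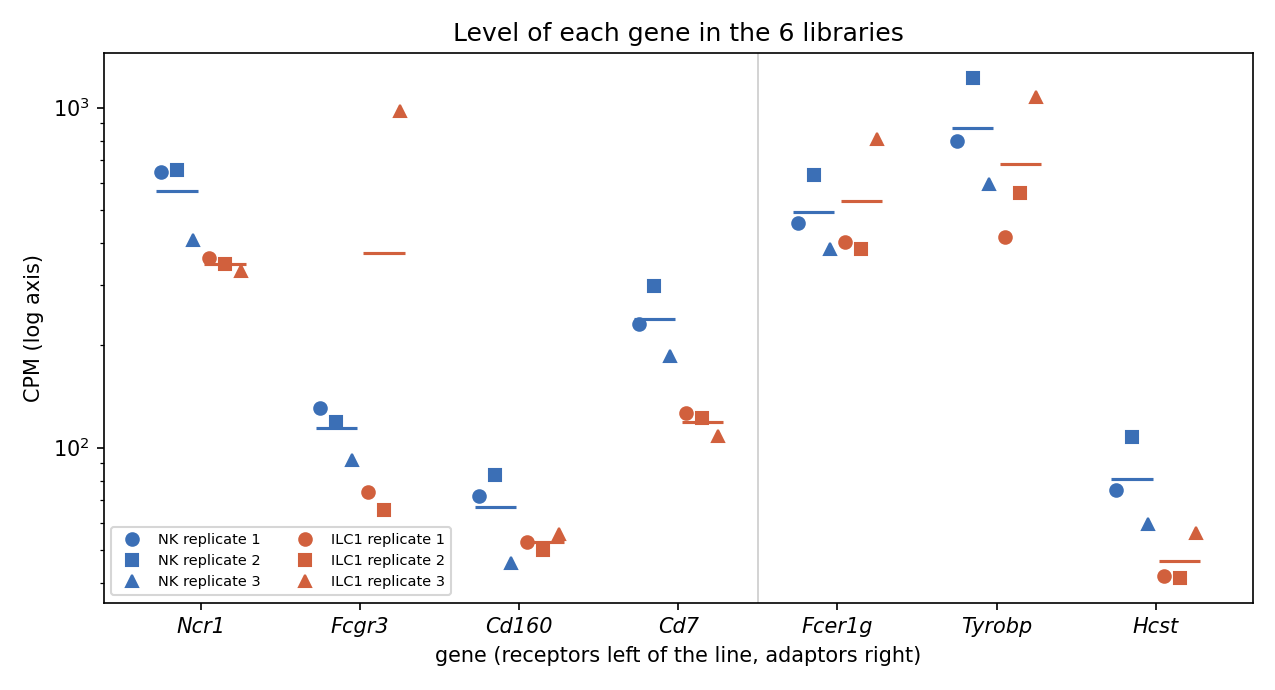
Level in CPM (log axis) of the 4 receptor and 3 adaptor genes in each library, with NK libraries in blue, ILC1 libraries in red, a symbol per replicate and a bar at each group mean. Fcgr3 in ILC1 replicate 3 stands at 978 CPM, while every other library lies between 65.5 and 131 CPM for that gene.

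Ncr1 had the highest level per length of the 4 receptor genes in every library but ILC1 replicate 3. It had 646, 656 and 408 CPM in NK replicates 1 to 3 and 362, 348 and 330 CPM in ILC1 replicates 1 to 3. The groups did not overlap, and the ILC1 libraries lay closer together (347 ± 15.9 CPM, mean ± SD, n = 3) than the NK libraries (570 ± 140 CPM, n = 3). The log2 fold change was -0.72 ± 0.21 (SE), which is 1.64-fold lower in ILC1s, with an edgeR adjusted p of 0.228. NK replicate 3, the NK library with the matrix markers, was the lowest NK library, and without it the value was -0.90 with an edgeR adjusted p of 0.0414, where 1.33% of all genes passed as lower. It was -0.60 without NK replicate 2 (edgeR adjusted p = 0.559). Against NK replicate 3, in a fit that compared libraries within sets of like matrix and macrophage levels (described with Cd160), it was -0.20 ± 0.13 (edgeR adjusted p = 0.753). ILC1 replicate 3 had the lowest level of the 6, while the macrophage markers were highest there.

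Cd7 had the largest difference in the set apart from Fcgr3. NK replicates 1 to 3 had 232, 299 and 186 CPM, and ILC1 replicates 1 to 3 had 127, 122 and 108 CPM. Every ILC1 library was below every NK library. The means were 239 ± 56.9 and 119 ± 9.40 CPM (SD, n = 3 each), and the log2 fold change was -1.0 ± 0.20, 2.0-fold lower in ILC1s, with an edgeR adjusted p of 0.134. Without NK replicate 3 the value was -1.15 with an edgeR adjusted p of 0.0434, and with DESeq2 on all libraries it was -0.99 with an adjusted p of 5.3e-04. In the fit by sets it was -0.58 ± 0.18 (edgeR adjusted p = 0.419).

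Cd160 was the least abundant gene of the set per length. It had 72.2, 83.0 and 45.8 CPM in the NK libraries and 52.6, 50.0 and 55.8 CPM in the ILC1 libraries. NK replicate 3 was the lowest of all 6 libraries, so the groups overlapped. The log2 fold change was -0.34 ± 0.23 with an edgeR adjusted p of 0.511. Among the libraries rich in matrix markers, the mean of ILC1 replicates 1 and 2 was above NK replicate 3 by 0.16 on the log2 scale, and the sign also turned when the libraries were fitted in sets. The sets were the pair of NK libraries poor in matrix markers, the trio rich in them, and ILC1 replicate 3 by itself. In that fit Cd160 was at 0.16 ± 0.16 and none of the 7 genes passed as lower (0.117% of all genes did), with NK replicate 3 the one NK library compared.

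Fcgr3 gave opposite answers with and without a single library. NK replicates 1 to 3 had 131, 119 and 91.9 CPM, ILC1 replicates 1 and 2 had 74.1 and 65.5 CPM, and ILC1 replicate 3 had 978 CPM. The last library was 14.0-fold above the mean of the other ILC1 libraries, which both lay below every NK library. Over all libraries the log2 fold change was 1.71 ± 1.12 with an edgeR adjusted p of 0.502, and DESeq2 gave no p for this gene. Without ILC1 replicate 3 it was -0.72 ± 0.17 with an edgeR adjusted p of 0.189, in the fit by library sets it was -0.40, and with the replicate number as a block it was 0.36.

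Fcgr3 belongs to a cluster of Fc gamma receptor genes of similar sequence, and reads of 50 bases may be shared among them. Fcgr2b, the inhibitory IgG receptor, had 13.4, 15.0 and 24.1 CPM in the NK libraries, 25.5 and 20.8 CPM in ILC1 replicates 1 and 2 and 1308 CPM in ILC1 replicate 3. Fcgr4 had 0.87 to 3.28 CPM in the other 5 libraries and 136 CPM in ILC1 replicate 3. Among macrophage markers in the same library, lysozyme (Lyz2) had 5838 CPM against 29.8 to 117 CPM elsewhere, and the CSF-1 receptor gene Csf1r had 1077 CPM against 11.4 to 56.8 CPM. The part of the macrophage markers in the Fcgr3 value was not tested. Fcgr2b, Fcgr4 and Csf1r were named after their values were seen.

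**Figure D2:**
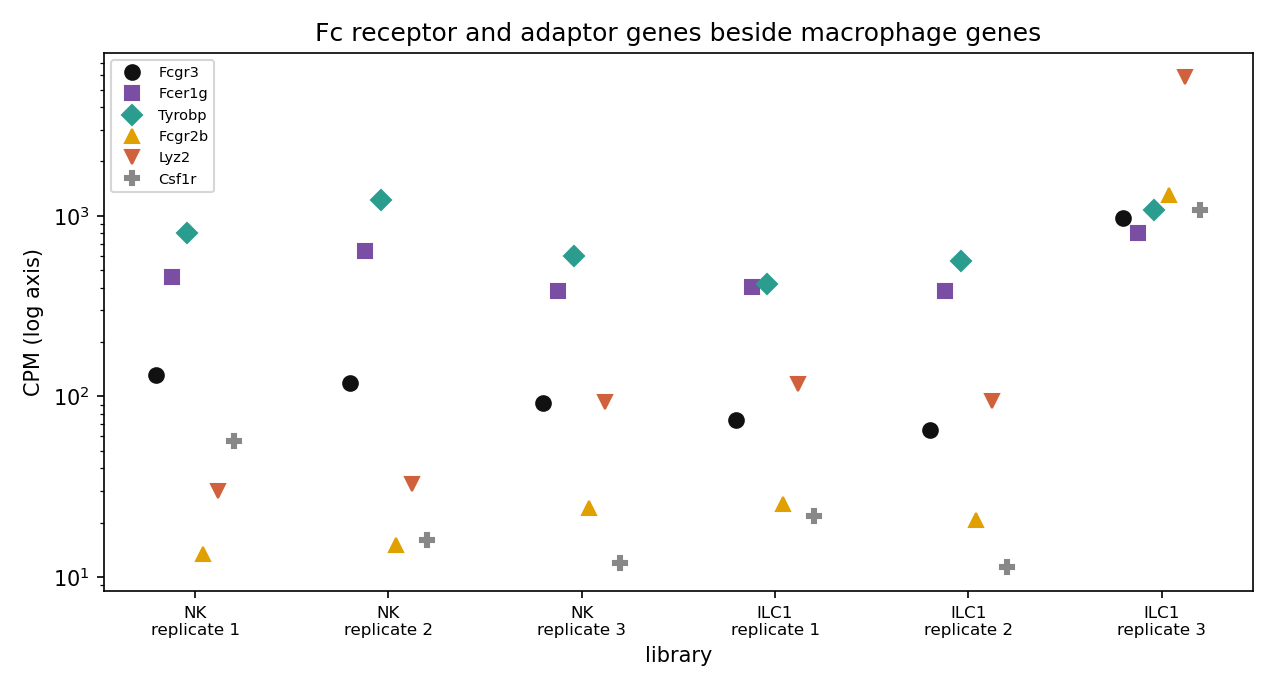
CPM (log axis) of Fcgr3, Fcer1g, Tyrobp, Fcgr2b, Lyz2 and Csf1r in each library, with a colour and symbol per gene. All but Tyrobp have their highest level in ILC1 replicate 3, where Fcgr3 and Fcgr2b reach 978 and 1308 CPM.

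Fcer1g, the gamma chain gene that NKp46 and CD16 both use, did not separate the groups. It had 459, 635 and 383 CPM in the NK libraries and 403, 384 and 808 CPM in the ILC1 libraries. ILC1 replicate 3 was the highest of all 6, 2.05-fold above the mean of the other ILC1 libraries, and those lay within the NK range. The log2 fold change was 0.11 ± 0.36 with an edgeR adjusted p of 0.890. It was -0.33 ± 0.23 without ILC1 replicate 3 and -0.035 without NK replicate 3, so the sign was not fixed by these libraries. Fcer1g is also used by mast cells and basophils, whose 9 markers all had their highest level in NK replicate 1, summing to 259 CPM there and to 85.0 to 132 CPM elsewhere. The stem cell factor receptor Kit, which made up 119 CPM of that sum, also had 76.1 to 110 CPM in the other libraries, and the histidine decarboxylase gene Hdc had 61.0 CPM against 7.29 to 13.1 CPM. The mast cell tryptase gene Tpsb2 had 18.7 and 4.31 CPM in NK replicates 1 and 2, 0.058 CPM in ILC1 replicate 3 and 0 counts in the other 3 libraries. Their part in the Fcer1g level was not tested.

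Tyrobp, the DAP12 gene, was the most abundant of the 7 per length. It had 799, 1223 and 597 CPM in the NK libraries and 417, 560 and 1075 CPM in the ILC1 libraries. ILC1 replicates 1 and 2 lay below every NK library, whereas ILC1 replicate 3 lay between NK replicates 1 and 2 and was 2.20-fold above the mean of the other ILC1 libraries. The log2 fold change was -0.35 ± 0.43 over all libraries (edgeR adjusted p = 0.720). It was -0.84 ± 0.33 without ILC1 replicate 3 (edgeR adjusted p = 0.340) and -0.024 without NK replicate 2, so no direction held beyond the spread.

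Hcst, the DAP10 gene, lies beside Tyrobp. Its level in ILC1 replicate 3 was 1.34-fold above the mean of the other ILC1 libraries, against 2.20-fold for Tyrobp. NK replicates 1 to 3 had 75.2, 108 and 59.7 CPM, and ILC1 replicates 1 to 3 had 42.0, 41.5 and 56.1 CPM. The groups did not overlap, although NK replicate 3 and ILC1 replicate 3 differed by little. The means were 80.8 ± 24.4 and 46.5 ± 8.30 CPM (SD, n = 3 each). The log2 fold change was -0.80 ± 0.26, 1.74-fold lower in ILC1s, with an edgeR adjusted p of 0.257. Without ILC1 replicate 3 the log2 fold change was -0.96 ± 0.26 (edgeR adjusted p = 0.223). It was -0.53 without NK replicate 2 (edgeR adjusted p = 0.562) and -0.52 ± 0.23 in the fit by sets (edgeR adjusted p = 0.625).

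**Figure D3:**
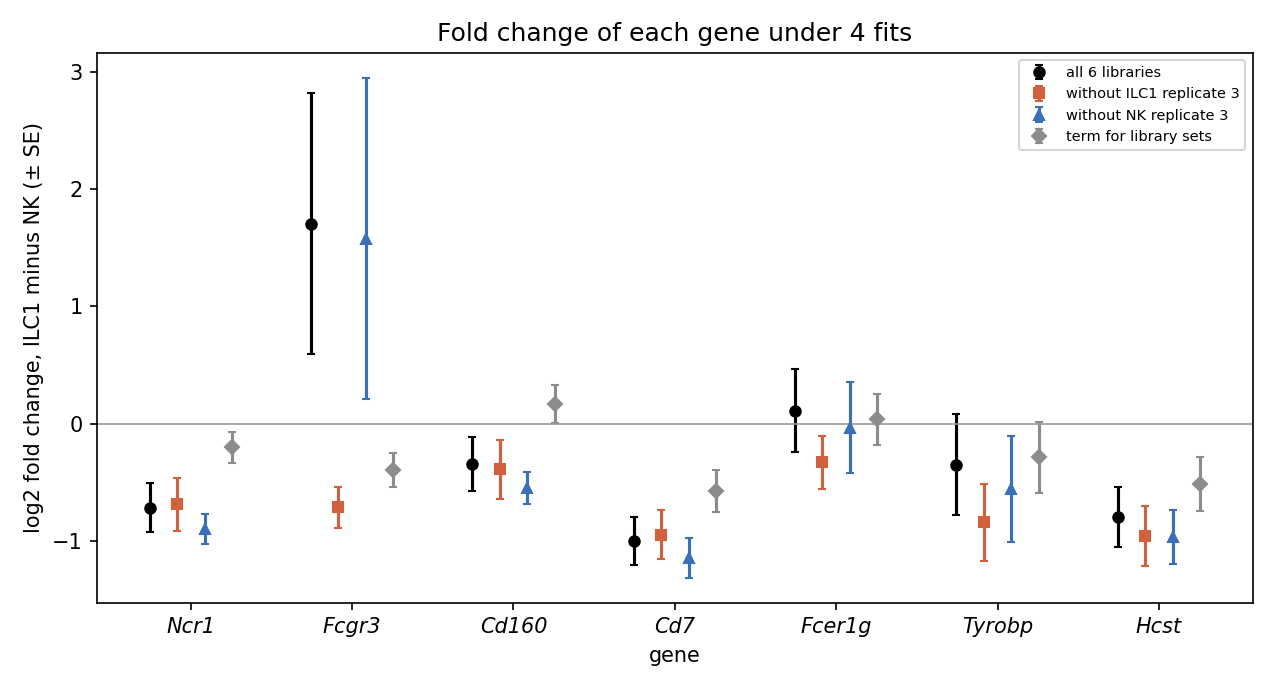
Log2 fold change (ILC1 minus NK, bars are SE) of each gene with all 6 libraries, without ILC1 replicate 3, without NK replicate 3, and with a term for library sets. Ncr1, Cd7, Tyrobp and Hcst stay below 0 in all 4 fits, whereas Fcgr3 moves from 1.71 with all libraries to -0.72 without ILC1 replicate 3.

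Levels of different genes were compared as CPM per kilobase of annotated exon. In NK cells the order was Tyrobp (1308 ± 479), Fcer1g (563 ± 147), Ncr1 (370 ± 91.1), Cd7 (211 ± 50.2), Hcst (112 ± 33.8), Fcgr3 (65.7 ± 11.6) and Cd160 (25.4 ± 7.23 CPM per kilobase, SD, n = 3). The 3 NK values of each gene did not overlap those of its neighbour in this order, although the lowest Ncr1 value (265) and the highest Cd7 value (264) nearly met. ILC1 replicates 1 and 2 had the same order. In ILC1 replicate 3 Fcgr3 took the third place, with 563 CPM per kilobase, above Ncr1 with 214. Over the 3 ILC1 libraries, Tyrobp (625 to 1612) and Fcer1g (439 to 924) overlapped. DAP10 mRNA was thus the scarcest of the 3 adaptor messages per length in every library.

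Ratios between genes of the same library do not depend on how libraries are scaled, and 6 were compared. With 3 against 3 libraries, the exact permutation test (two-sided) cannot give a p below 0.1, and no ratio can pass. How often ratios of other gene pairs separate the groups was not computed, so the ratios without overlap are given as a description. Among single tested genes, 25.8% had no overlap of CPM in either direction. The ratio of Cd247 to Fcer1g, the zeta and gamma chains that serve NKp46, was 0.058, 0.046 and 0.040 in NK replicates 1 to 3 and 0.021, 0.020 and 0.0062 in ILC1 replicates 1 to 3. The groups did not overlap, with a mean log2 difference of -1.79 (exact p = 0.1, adjusted p = 0.150 over the 6 ratios) and of -1.22 without ILC1 replicate 3. The exon lengths are the same in every library, so the difference between the groups does not depend on them.

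The ratio of Fcer1g to Tyrobp was 0.439, 0.396 and 0.490 in the NK libraries and 0.738, 0.523 and 0.573 in the ILC1 libraries. Every ILC1 library lay above every NK library, with a log2 difference of 0.46 that was 0.50 without ILC1 replicate 3 (exact p = 0.1 both times). The ratio of Cd160 to Ncr1 was 0.065, 0.074 and 0.065 against 0.085, 0.084 and 0.099, with a log2 difference of 0.38 (exact p = 0.1), so Cd160 was higher relative to Ncr1 in each ILC1 library. The ratio of Ncr1 to Fcer1g was 0.798, 0.587 and 0.604 against 0.509, 0.515 and 0.232, with a log2 difference of -0.74 (exact p = 0.1) that was -0.36 without ILC1 replicate 3.

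The other ratios overlapped between the groups. That of Hcst to Tyrobp was 0.081 to 0.092 in NK cells and 0.048 to 0.093 in ILC1s, with a log2 difference of -0.36 (exact p = 0.400). That of Fcgr3 to Fcer1g was 0.095 to 0.144 in NK cells, 0.093 and 0.086 in ILC1 replicates 1 and 2 and 0.610 in ILC1 replicate 3 (log2 difference 0.52, exact p = 1.0, and -0.40 without that library).

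**Figure D4:**
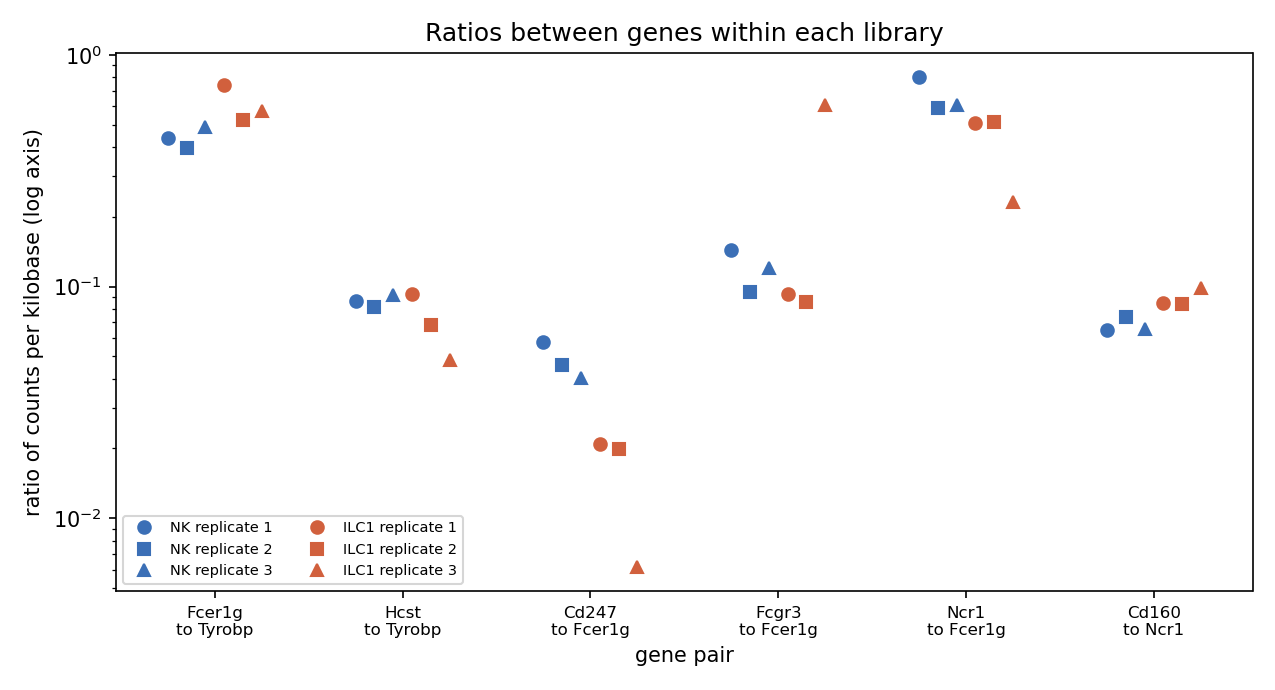
Ratio of counts per kilobase (log axis) for 6 gene pairs in each library, with NK libraries in blue, ILC1 libraries in red and a symbol per replicate. The groups do not overlap for Fcer1g to Tyrobp, Cd247 to Fcer1g, Ncr1 to Fcer1g and Cd160 to Ncr1. How often other gene pairs separate in this way was not computed.

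Among lymphoid genes that pair with these adaptors or belong to the same ITAM complexes, most values were lower in ILC1s. Of 11 genes tested, 0 passed edgeR's test, 8 had an unadjusted edgeR p under 0.05 with lower values and 1 with a higher value, and the median log2 fold change was -1.04. DESeq2 called 8 lower and 0 higher. Of all tested genes 8.82% were lower and 6.95% higher at an unadjusted edgeR p under 0.05. DESeq2 called 4.80% lower and 3.55% higher of the genes to which it gave an adjusted p. The gene with the higher value was the T cell receptor subunit gene Cd3g, named after its value was seen. NKG2D (Klrk1), the partner of DAP10, had 1183, 1075 and 831 CPM in the NK libraries and 552, 505 and 442 CPM in the ILC1 libraries (log2 fold change -1.04 ± 0.18, edgeR adjusted p = 0.120). NKG2C (Klrc2), a DAP12 partner, had 198, 187 and 141 against 45.9, 39.8 and 24.9 CPM (-2.25 ± 0.27, edgeR adjusted p = 0.0830). NK1.1 (Klrb1c), which uses the gamma chain, had 1039, 1058 and 604 against 360, 339 and 356 CPM (-1.36 ± 0.24, edgeR adjusted p = 0.120).

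The zeta chain gene Cd247 had 162, 178 and 93.8 CPM in the NK libraries and 51.5, 46.3 and 30.4 CPM in the ILC1 libraries. The ILC1 libraries lay below the NK libraries without overlap, as for 13.3% of all tested genes. Its log2 fold change was -1.75 ± 0.32 (edgeR adjusted p = 0.120) and -1.79 was its difference relative to Fcer1g, whose own fold change was 0.11. So of the pair of chains that NKp46 can use, zeta had lower values in every ILC1 library, while the gamma chain values overlapped.

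The myeloid partner list holds receptors of myeloid cells, not all of which use these adaptors (Dectin-1 does not need them). Its genes were low in 5 libraries and most were high in ILC1 replicate 3. Of 20 listed genes 19 were in the table and 16 were tested, and 16 of the 19 had their highest level in ILC1 replicate 3. Summed over the list, the level was 44.5 to 150 CPM in 5 libraries and 4538 CPM in ILC1 replicate 3. The median log2 fold change was 4.74, and 0.82 without that library. No gene passed edgeR's test (10 higher and 0 lower had an unadjusted p below 0.05, and DESeq2 called 1 higher). Of all tested genes 6.95% were higher and 8.82% lower at that unadjusted p, and DESeq2 called 3.55% higher. Pilrb1, a DAP12-coupled receptor, had 10.6, 16.3 and 12.6 CPM in the NK libraries and 30.6, 25.6 and 47.0 CPM in the ILC1 libraries. It was thus above the NK range in all 3, as were 12.5% of all tested genes. Dectin-1 (Clec7a) had 5.29 to 25.4 CPM in the NK libraries, 39.3 and 34.1 CPM in ILC1 replicates 1 and 2 and 1376 CPM in ILC1 replicate 3. Clec4n, which encodes Dectin-2, a gamma chain partner, and Fcgr1, the high-affinity IgG receptor, had 389 and 357 CPM in ILC1 replicate 3 and at most 8.24 and 4.01 CPM elsewhere.

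Genes that act downstream of the adaptors had a median log2 fold change of -0.049 over 37 genes. None passed edgeR's test, 8 had lower and 3 higher values at an unadjusted p under 0.05, and DESeq2 called 4 lower and 1 higher. The shares of all tested genes were 8.82% lower and 6.95% higher at that unadjusted p, and 4.80% and 3.55% by DESeq2. Fyn, a Src family kinase that phosphorylates ITAMs, had 478, 449 and 340 CPM in the NK libraries and 199, 167 and 147 CPM in the ILC1 libraries (-1.31 ± 0.20, edgeR adjusted p = 0.103). Prkcq, which encodes protein kinase C theta, had 203, 195 and 150 against 108, 87.1 and 71.0 CPM (-1.04 ± 0.21, edgeR adjusted p = 0.134). The phosphoinositide 3-kinase genes Pik3cd and Pik3r1, which act after DAP10, had -0.70 ± 0.18 and -0.58 ± 0.15. In both, the ILC1 libraries lay below the NK libraries, as for 13.3% of all tested genes.

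Of the kinases that bind the phosphorylated ITAM, named after their values were seen, Syk had 205, 232 and 167 CPM in the NK libraries and 88.3, 73.7 and 248 CPM in the ILC1 libraries, again high in ILC1 replicate 3. Zap70 had 288, 269 and 156 against 193, 177 and 181 CPM, and its groups overlapped. Their log2 fold changes were -0.56 ± 0.49 and -0.37 ± 0.25, with edgeR adjusted p-values of 0.621 and 0.504.

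Genes that restrain ITAM signalling had a median log2 fold change of 0.13 over 16 genes. Of the 16, 10 had their highest level in ILC1 replicate 3, as did 16 of the 37 downstream genes. The share over all tested genes was not computed. None of the 16 restraining genes passed edgeR's test (4 lower and 3 higher had an unadjusted p below 0.05, and DESeq2 called 0). At that unadjusted p 8.82% of all tested genes were lower and 6.95% higher. Inpp5d, which encodes the phosphatase SHIP1, had 431, 470 and 304 CPM in the NK libraries and 231, 200 and 319 CPM in the ILC1 libraries (-0.69 ± 0.25). The related phosphatase gene Inppl1 had 30.0, 32.3 and 35.2 against 39.8, 39.7 and 43.6 CPM (0.34 ± 0.13). Cd300a and Klrg1, both inhibitory receptor genes, had 4.25 ± 1.54 and -0.68 ± 0.25, and Cd300a reached 46.5 CPM in ILC1 replicate 3 against at most 1.89 CPM elsewhere.

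Most ligand genes of these receptors had low levels in the sorted cells. Of 10 genes 7 were tested, 0 passed edgeR's test (1 lower and 1 higher had an unadjusted p below 0.05, and DESeq2 called 0), and the median log2 fold change was 0.91. At that unadjusted p 8.82% of all tested genes were lower and 6.95% higher. Properdin (Cfp), which has been described as an NKp46 ligand, had 467 CPM in ILC1 replicate 3 and 6.52 to 15.0 CPM elsewhere. The NKG2D ligand gene H60b had 0.72 to 1.90 CPM in the NK libraries and 0.15 to 0.29 CPM in the ILC1 libraries, close to the limit of 3 counts. Other NKG2D ligand genes, Raet1d and Raet1e, stayed at or under 13.3 CPM. The NKG2D ligand gene Ulbp1 (chosen once values were known) had 14.4, 16.1 and 35.5 CPM in the NK libraries and 40.6, 47.6 and 13.3 CPM in the ILC1 libraries, so it was higher in the 3 libraries rich in matrix markers.

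Of 15 transcription factor genes linked to these receptor genes, 0 passed edgeR's test (2 lower and 1 higher had an unadjusted p below 0.05, and DESeq2 called 2 lower), and the median log2 fold change was -0.13. At that unadjusted p 8.82% of all tested genes were lower and 6.95% higher, and DESeq2 called 4.80% lower. Eomes, a T-box factor of NK cells, had 562, 559 and 361 CPM in the NK libraries and 170, 137 and 68.4 CPM in the ILC1 libraries (-1.98 ± 0.38, edgeR adjusted p = 0.127). The ETS family genes Elf4 and Ets1 had -0.81 ± 0.15 and -0.51 ± 0.21. In both, the ILC1 libraries lay below the NK libraries, as for 13.3% of all tested genes. Cebpa, a myeloid factor, had 0.62 to 5.29 CPM in 5 libraries and 99.1 CPM in ILC1 replicate 3.

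**Figure D5:**
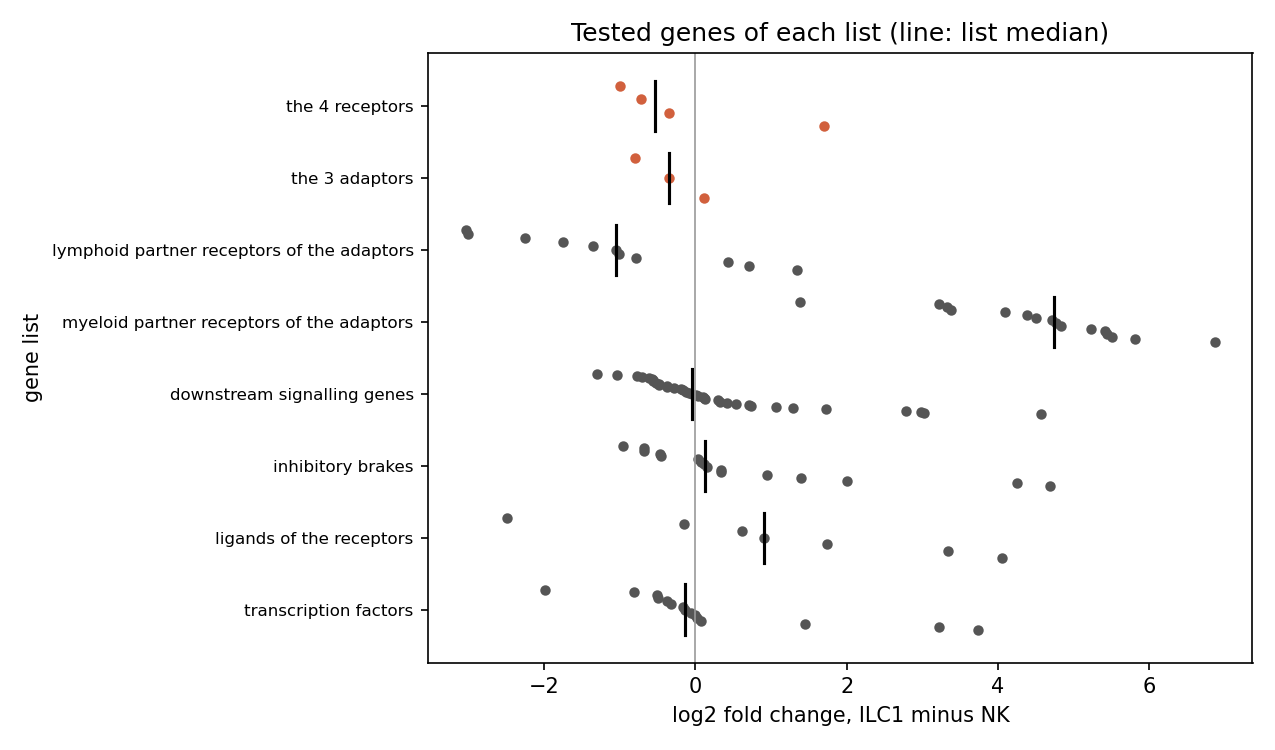
Log2 fold change (ILC1 minus NK) of every tested gene of each list, with a line at the list median and the receptors and adaptors of the set in red. The myeloid partner list has a median of 4.74 and the lymphoid partner list one of -1.04.

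The bases upstream of the start sites were searched for the cores of 3 factor families, on both strands: TGTGGT for RUNX, GTGTGA for T-box and GGAAGT for ETS factors. RefSeq windows on GRCm38.p6 were found for 5 of the 7 genes, and Ncr1 and Hcst are shown because both were below NK in every ILC1 library and are the receptor and adaptor of that kind with a window. Each run holds the 250 bases before the first listed start site, with matches in capitals, none of which overlap each other.
Ncr1: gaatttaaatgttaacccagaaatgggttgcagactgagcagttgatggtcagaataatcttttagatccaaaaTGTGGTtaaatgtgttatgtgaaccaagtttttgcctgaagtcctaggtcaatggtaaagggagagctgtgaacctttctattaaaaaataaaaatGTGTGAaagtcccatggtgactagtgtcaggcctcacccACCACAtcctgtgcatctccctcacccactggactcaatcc
Hcst: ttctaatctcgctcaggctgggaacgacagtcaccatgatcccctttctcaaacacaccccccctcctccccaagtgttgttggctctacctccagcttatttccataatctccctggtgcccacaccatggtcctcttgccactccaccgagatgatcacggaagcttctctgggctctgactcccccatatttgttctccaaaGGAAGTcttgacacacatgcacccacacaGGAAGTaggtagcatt
The Ncr1 window (chr7:4337465-4337714, forward strand) held 2 matches to the RUNX core, 1 on each strand, and 1 to the T-box core. The Hcst window (chr7:30419855-30420104, reverse strand) held 2 matches to the ETS core and 0 to the others. Cd160, whose groups overlapped, had 2 windows, each with 1 match to the RUNX core and 1 to the T-box core, and the second with 1 to the ETS core. The Fcer1g window and both Fcgr3 windows held 0 matches to any of the cores. Over 32851 windows of the same length, 14.0% held the RUNX core, 12.3% the T-box core and 19.7% the ETS core. These matches describe the letters of the windows and no binding was measured.

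The genes whose pattern over the 6 libraries was most like each member were taken by Pearson correlation of log2 CPM among 8750 named genes with a mean of at least 10 CPM. With 6 points that share their libraries, high values are easily reached, and they are given as a description. Closest to Ncr1 were Klrb1a, an NKR-P1 receptor gene (r = 0.996), Gimap1 (r = 0.995) and Septin1 (r = 0.995). Klrb1a had 130, 139 and 76.8 CPM in the NK libraries and 59.7, 55.9 and 55.4 CPM in the ILC1 libraries, with the same intermediate NK replicate 3. Closest to Cd7 were Relb, an NF-kappaB subunit gene (r = 0.999), Gba2 and Kcnk5 (r = 0.995 each).

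Closest to Fcgr3 were Slc43a2 and Prkcd, which encodes protein kinase C delta (r = 0.998 each), and Ube2j1 (r = 0.996). Slc43a2 had 10.8 to 17.8 CPM in 5 libraries and 95.3 CPM in ILC1 replicate 3, and without that library r was 0.983 for Slc43a2, 0.969 for Prkcd and 0.953 for Ube2j1. Fcer1g was most like Lamtor4 and Plekhf2 (r = 0.997 each) and Arpc4 (r = 0.995), all highest in ILC1 replicate 3. Closest to Tyrobp were Ddrgk1 (r = 0.993), the immunoproteasome gene Psmb10 (r = 0.991) and Sys1 (r = 0.986). Hcst was most like Inpp5k (r = 0.991), Maf1 (r = 0.988) and Cog1 (r = 0.986), and Cd160 was most like Mfng (r = 0.995), Abcf1 (r = 0.992) and Chst12 (r = 0.988). With a prior count of 0.5 in place of 2 each of these genes kept its place among the top 3 of its member. At these levels the prior hardly changes log2 CPM, so this could hardly come out otherwise.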

How the data were processed

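RNA was measured in 3 NK and 3 ILC1 libraries. The authors deposited whole-number counts per gene symbol, made with HISAT2 2.1.0 and featureCounts 2.0.1 on GRCm38 according to tool names in the submitters' processing notes. Strand setting, gene annotation release and treatment of multiply mapped reads were not given in the sources used here. Sequencing was single-end, 50 bases, from poly(A)-selected RNA, per the labels' protocols with no molecular identifiers named, so the limit given for a count of 0 covers counting error only.

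Groups came from the sample titles. CPM used TMM-scaled library sizes. The test was edgeR 4.0.16 (R 4.3.3): TMM, filterByExpr, quasi-likelihood fitting (robust) on cell type alone, and adjustment by Benjamini-Hochberg over 14475 genes. The threshold was 0.05, and the SE came from the fit. Alternatives were other normalizations and filters, DESeq2 1.42.0, limma-voom (limma 3.58.1), a replicate block, library sets and left-out libraries. Exon lengths, positions and coding sequences came from GENCODE M21. No 2 libraries of a group agreed within counting noise (median chi-square per gene at least 2.42, where counting alone gives 0.455).

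The genes and lists were chosen with earlier results of these data known. Named genes were the 7 members, up to 4 genes of smallest p per pathway list, up to 3 of highest level per marker list that bear on a member, and the 3 genes most like each member. Marker lists of other cell types are summed where they move with a member.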

Additional observations from a re-analysis of the deposited data

How the results depend on the processing

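None of the 7 genes passed as higher in any alternative run, and Ncr1, Cd7, Tyrobp and Hcst kept values below 0 in all of them. The number passing as lower was 0 in the edgeR and limma-voom fits of all libraries. With single libraries left out it was 0 to 2, the 2 being Ncr1 and Cd7 without NK replicate 3. It was 2 with DESeq2 (Ncr1 -0.71 with adjusted p = 0.0301, Cd7 -0.99) and 6 with NK and ILC1 replicates 1 and 2 alone, where 10.8% of all genes passed as lower and 19.5% as higher. Those values were -0.87 for Ncr1, -0.84 for Fcgr3, -0.59 for Cd160, -1.09 for Cd7, -1.04 for Tyrobp and -1.12 for Hcst, and -0.47 for Fcer1g, which did not pass. In those 4 libraries cell type and the matrix markers cannot be told apart. With single libraries left out the fold change ran from -0.90 to -0.60 for Ncr1, -0.72 to 2.21 for Fcgr3, -1.15 to -0.80 for Cd7 and -0.33 to 0.34 for Fcer1g. With the library sets as a term Fcgr3 was -0.40, Cd160 0.16, Ncr1 -0.20, Cd7 -0.58 and Hcst -0.52. The log2 ratio of Fcgr3 to Fcer1g ran from -0.40 to 1.01 with libraries left out. In NK replicate 3 against ILC1 replicates 1 and 2 it was -0.44, that of Cd247 to Fcer1g -0.98 and that of Ncr1 to Fcer1g -0.24.

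Lymphoid partners passing as lower were 0 to 5 with libraries left out, 8 with DESeq2, 8 with replicates 1 and 2 alone, 3 without the low-count filter and 3 with library sets (median -0.65). Of all genes, at most 1.33% passed as lower with a library left out, 4.80% with DESeq2 and 10.8% with replicates 1 and 2 alone. The share was 0.348% without the filter and 0.117% with library sets. As higher, 3.55% passed with DESeq2 and 19.5% with replicates 1 and 2 alone. The myeloid partner median ran from 0.82 to 5.27 with libraries left out and was 1.09 with replicates 1 and 2 alone (6 higher, 1 lower) and 0.32 with library sets, and DESeq2 called 1 higher. Downstream genes passing as lower were 0 to 2 with libraries left out, 1 without the filter, 4 with DESeq2 (1 higher) and 16 with replicates 1 and 2 alone (3 higher, median -0.43), and their median ran from -0.35 to 0.023. For the restraining genes it ran from -0.25 to 0.32, and was -0.34 with replicates 1 and 2 alone (5 lower, 1 higher). For the ligands it ran from 0.43 to 1.27, and was 1.75 without the filter, 1.89 with the replicate block, 2.14 with limma-voom and 0.31 with library sets, with 3 higher and 1 lower for replicates 1 and 2 alone. For the transcription factors it ran from -0.34 to -0.035, and was -0.34 with replicates 1 and 2 alone (4 lower), with 2 lower by DESeq2 and 1 without the filter. The causes were not tested. Leaving out the filter moved the median of all genes from 0.081 to 0.24.

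The labels do not say whether replicate numbers pair the samples. Deviations from the group mean of same-numbered libraries correlated at -0.363, -0.355 and -0.564, and 0 of 6 libraries correlated best with their own number. With 3 libraries per group, some set apart by macrophage or matrix markers, these values cannot decide whether same-numbered samples shared an origin. With the number as a replicate block 0 of 7 genes passed, and the values were -0.69 for Ncr1, 0.36 for Fcgr3, -0.30 for Cd160, -0.98 for Cd7, 0.046 for Fcer1g, -0.42 for Tyrobp and -0.77 for Hcst.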
